A study of Mus musculus with 12 samples.

Results

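Liver macrophages were followed here through 10 marker genes, out of the 56205 genes in the raw count table. Some of these are also expressed by other cells, as given below for Cd9, Itgax and Gpnmb. The members were chosen by name and not by a cut on their values, though earlier results of these data were known. Adgre1, Cd68, Csf1r, Lyz2, C1qa and C1qb mark macrophages in general, and Trem2, Gpnmb, Itgax and Cd9 belong to the lipid-associated macrophages that are described in fatty liver and adipose tissue. All 10 members were found in the table and all passed the low-count filter, which left 13416 genes for testing.

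Whole livers of 12 ob/ob mice were profiled by poly(A)-selected RNA-seq, with 6 mice on standard chow (FLO) and 6 on standard chow with DL-ethionine (fibrotic). The name fibrotic comes from the sample titles. For ethionine-treated ob/ob mice the paper describes microvesicular steatosis and inflammation, and it reports no difference in the collagen gene Col1a1. Ethionine is an ethyl analogue of methionine, and its dose is not certain, because one label gives 0.165% in the drinking water and another gives 0.15% by injection. The duration is not certain either, at 2 weeks in the series text and 1 week in the methods. Mice of both groups were males of the B6.Cg-Lep ob/J strain by the methods, which lacks leptin and becomes obese, and were 8 to 10 weeks old when treatment began. No lean mice and no healthy liver were among these samples, so FLO livers are the control here and not a normal liver. Replicates carry separate titles, but no label says how tissue or RNA was handled for each mouse.

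Macrophages of the liver are Kupffer cells, which live in the sinusoids, and cells that arise from blood monocytes. Kupffer cells need CSF1R to survive, the receptor for the growth factors CSF1 and IL-34. In lipid-loaded liver and fat, some macrophages take up a programme of lipid handling and lysosomal genes that depends on the receptor TREM2.

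Total counts ran from 17815568 to 20352675 in fibrotic libraries and from 18275320 to 24814263 in FLO libraries. FLO replicate 3 held 3773 counts of Xist, against 0 to 4 in the other libraries, and 4 counts of the Y-linked Ddx3y, against 556 to 977. That pattern is of female tissue and goes against the male label, so the fold changes of all members are also given without this library. Levels are in CPM, which are counts scaled to a common TMM-normalized library size, and errors are SDs. In edgeR's quasi-likelihood test, calls needed an adjusted p no higher than 0.01 and a log2 fold change beyond 0.5 in either direction. The p-values measure the spread between these libraries.

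Of the 10 members, 6 rose in fibrotic livers and 0 fell in edgeR's test (also 6 and 0 with DESeq2 and limma-voom, and 7 and 0 at an unadjusted p under 0.05). Across all tested genes, 29.9% were called, 15.9% higher and 14.0% lower. The members that rose were Adgre1, Csf1r, Lyz2, C1qa and C1qb among the 6 general genes, and Cd9 among the 4 lipid-associated genes. Cd68, Trem2, Gpnmb and Itgax did not pass the test. The median log2 fold change was 0.72 over the 10 members, 0.72 over the general genes and 0.68 over the lipid-associated genes, against 0.03 over all tested genes. Estimates were above 0 for 9 members and below 0 for Itgax. Without FLO replicate 3 the same 6 members were called, at log2 fold changes of 0.79 for Adgre1, 0.77 for Csf1r, 0.74 for Lyz2, 0.64 for C1qa, 0.59 for C1qb and 0.80 for Cd9, with adjusted p from 0.00244 to 0.00906. The other 4 stood at 0.22 for Cd68 (adjusted p = 0.417), 0.90 for Trem2 (0.0905), 0.35 for Gpnmb (0.557) and -0.41 for Itgax (0.217). In RNA from whole liver, more macrophages and more of a transcript per macrophage cannot be told apart.

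**Figure D1:**
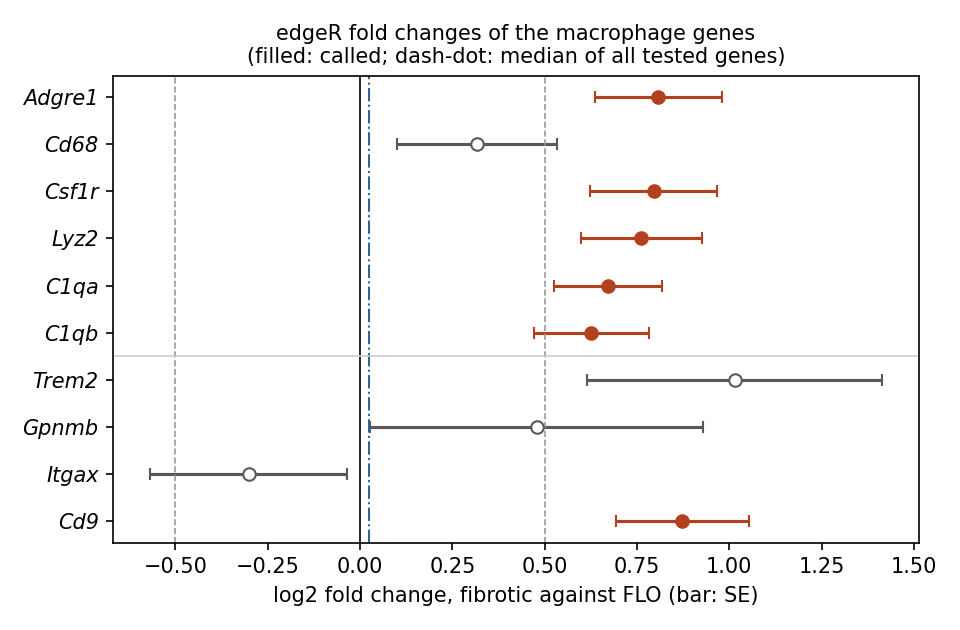
Points give the edgeR log2 fold change of each member, fibrotic against FLO, with bars of 1 SE, filled where the gene was called. The dashed lines mark the fold threshold, and the 6 called genes lie between 0.63 and 0.87 while Trem2 lies at 1.01 with an SE of 0.40.

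Start-site sequence is shown for 4 members that contrast in their behaviour: C1qb and Lyz2, which rose, Trem2, which had the largest estimate but was not called, and Itgax, the member below 0. Each is a run of 120 bases just upstream of the gene's start, from the RefSeq promoter table on GRCm38.p6, written 5′ to 3′ on the gene's own strand. Capitals mark GAGGAA or its other strand TTCCTC, a core that the myeloid factor PU.1 can bind. The windows are chr4:136886201-136886320 (minus strand) for C1qb, chr10:117282322-117282441 (minus) for Lyz2, chr17:48346281-48346400 (plus) for Trem2 and chr7:128129427-128129546 (plus) for Itgax, and no annotated gene overlaps them.
C1qb: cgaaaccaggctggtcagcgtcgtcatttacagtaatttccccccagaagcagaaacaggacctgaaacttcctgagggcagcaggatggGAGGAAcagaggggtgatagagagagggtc
Lyz2: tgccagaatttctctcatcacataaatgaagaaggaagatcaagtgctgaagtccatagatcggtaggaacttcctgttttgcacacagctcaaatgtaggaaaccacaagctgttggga
Trem2: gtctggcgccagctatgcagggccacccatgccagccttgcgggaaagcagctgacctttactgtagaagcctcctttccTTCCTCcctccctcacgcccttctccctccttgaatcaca
Itgax: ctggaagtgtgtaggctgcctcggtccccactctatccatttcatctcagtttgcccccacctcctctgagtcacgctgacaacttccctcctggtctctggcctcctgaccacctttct

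The table held promoters of 300 bases for 7 of the 10 members. GAGGAA occurred on either strand in 3 of these 7, Cd68, C1qb and Trem2, and in 28.3% of all 32851 promoters of that length. The palindrome CACGTG, which does not overlap GAGGAA and is a core of TFEB and MITF sites, occurred in 0 of the 7 and in 7.15% of all promoters. A match is a description of these letters and not of binding. Among members with a match, C1qb rose and Cd68 and Trem2 were not called, and among those without one, Lyz2 and Cd9 rose and Gpnmb and Itgax were not called.

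Surface receptors came first among the general genes. Adgre1 encodes F4/80, the surface protein by which mouse macrophages are commonly recognised. Its level was 14.6 CPM in the lowest fibrotic library, 22.2 at the median and 35.3 in the highest, against 11.5, 12.3 and 15.7 CPM in FLO. Replicates 1, 3, 4, 5 and 6 of the fibrotic group lay above every FLO library, and replicate 2 lay among them. The mean rose from 12.9 ± 1.51 to 22.5 ± 7.18 CPM (SD, n = 6 each), or by 0.81 on the log2 scale (SE 0.17, adjusted p = 0.00115). A two-sided exact permutation test of its log2 CPM, over all assignments of 6 against 6, gave p = 0.00433.

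Csf1r encodes the receptor for CSF1 and IL-34. Fibrotic libraries held 50.2 CPM at the lowest, 72.7 at the median and 124 at the highest, and FLO libraries 41.5, 44.4 and 48.0 CPM. It was the member whose groups did not overlap, a property of 30.4% of all tested genes. The mean went from 44.6 ± 2.62 to 77.5 ± 26.4 CPM (SD, n = 6 each), a rise of 0.80 on the log2 scale (SE 0.17, adjusted p = 0.00136). Its exact permutation p of 0.00216 is the smallest that 6 against 6 can give. FLO livers were close together for this gene, the highest being 1.16 times the lowest, while fibrotic livers spread over 2.48-fold. The antisense neighbour Hmgxb3 overlaps Csf1r, and whether strand was used in counting is not given, so reads of the 2 genes may be shared. Hmgxb3 itself had a log2 fold change of 0.39 (adjusted p = 0.00207) and was below the fold threshold.

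Secreted products of macrophages moved with the receptors. Lyz2 encodes lysozyme M, which cuts bacterial cell walls. It stood at 54.4, 78.8 and 111 CPM in the lowest, median and highest fibrotic library, and at 42.2, 46.0 and 57.6 CPM in FLO. Fibrotic replicate 2 fell within the FLO range and the other 5 fibrotic libraries lay above it. The log2 fold change was 0.76 (SE 0.16, adjusted p = 0.00131), with means of 81.4 ± 23.4 and 48.0 ± 6.28 CPM (SD, n = 6 each). Lyz1, the near-identical copy next to it, held 0 to 4 counts in each library, though reads that fit both copies could have been assigned to either.

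C1qa and C1qb encode chains of C1q, the recognition part of the classical complement pathway, which macrophages secrete in the liver. They lie near each other on chromosome 4, at chr4:136895917-136898803 and chr4:136880129-136886187 (minus strand, GRCm38, GENCODE M21). C1qa levels were 41.8, 68.9 and 86.0 CPM in the lowest, median and highest fibrotic library and 34.8, 42.0 and 45.2 CPM in FLO. C1qb levels were 33.6, 54.4 and 73.7 CPM in fibrotic and 28.7, 36.1 and 39.1 CPM in FLO livers. For both genes, fibrotic replicate 2 lay within the FLO range and the remaining fibrotic libraries above it. On the log2 scale C1qa rose by 0.67 (SE 0.15, adjusted p = 0.00129) and C1qb by 0.63 (SE 0.16, adjusted p = 0.00356). The exact permutation p was 0.00866 for C1qa and 0.0130 for C1qb.

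Cd68 encodes a lysosomal membrane glycoprotein of phagocytes and was the general gene that did not pass the test. Fibrotic libraries ran from 5.96 through a median of 9.19 to 13.5 CPM, and FLO libraries from 5.14 through 8.24 to 10.5 CPM. The groups overlapped widely, with fibrotic replicates 1 and 4 above every FLO library. Means were 9.78 ± 2.71 and 7.88 ± 2.33 CPM (SD, n = 6 each), the log2 fold change was 0.32 (SE 0.22, adjusted p = 0.236), and the exact permutation p was 0.234. Its counts of 94 to 289 per library were above those of Trem2 and Itgax, and its high-to-low ratio within FLO livers was 2.04, larger than the 1.16 to 1.36 of the other 5 general genes.

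**Figure D2:**
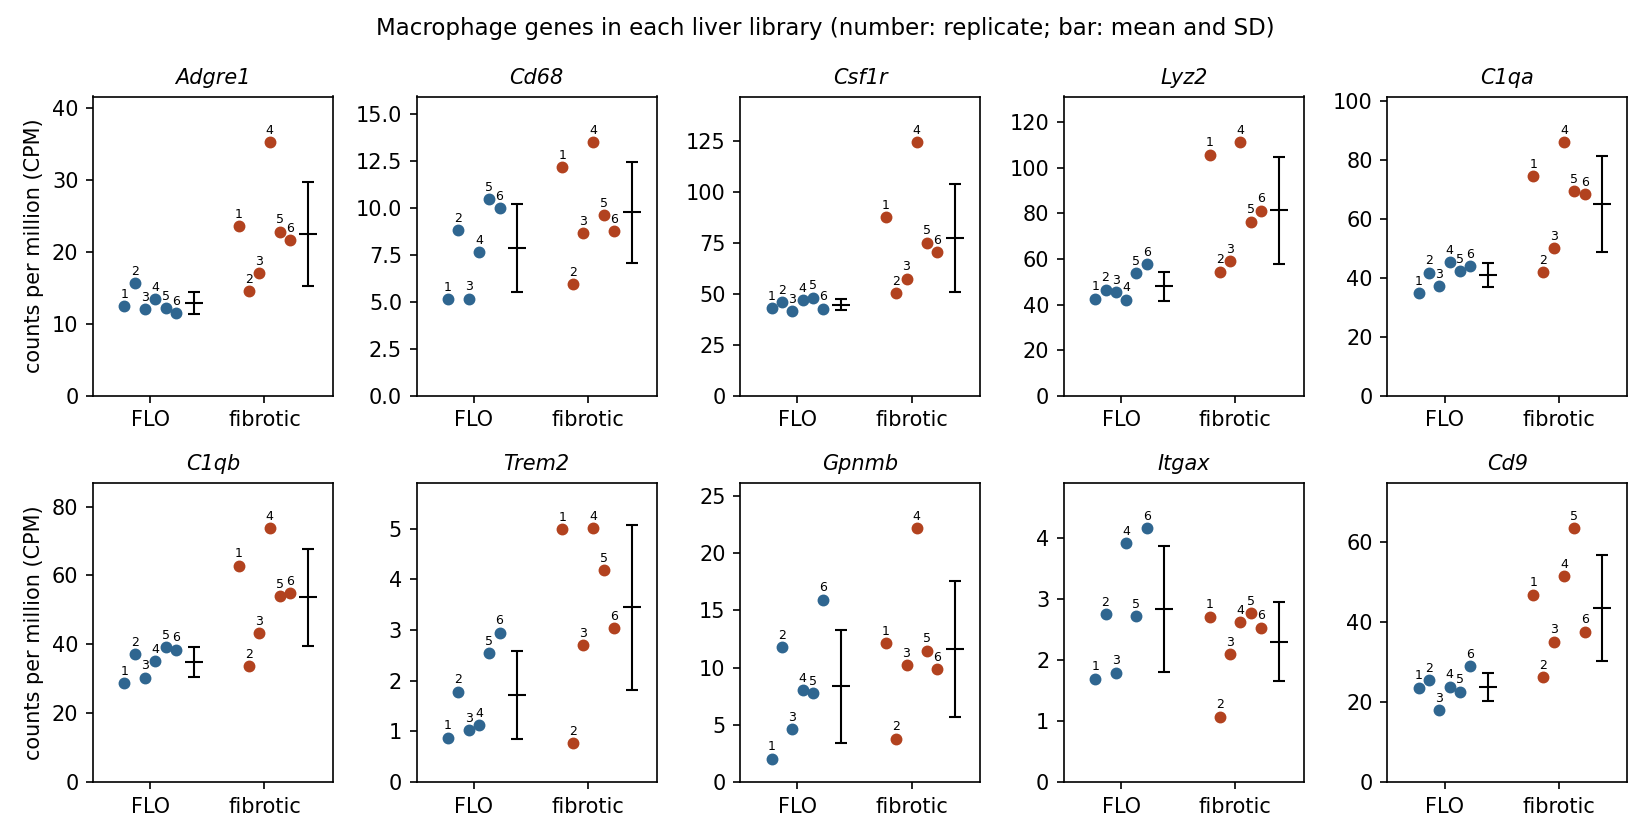
Each panel plots CPM on a linear axis for one member, with a numbered point per library and the mean and SD beside each group. In the fibrotic group replicate 2 is the lowest point in all 10 panels and replicate 4 the highest in 8.

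Among the lipid-associated genes, Cd9 was the one that rose. It encodes a tetraspanin that organises other membrane proteins and is also made by many cells that are not macrophages. Its level was 26.1 CPM in the lowest fibrotic library, 42.2 at the median and 63.3 in the highest, against 17.9, 23.7 and 28.9 CPM in FLO. Fibrotic replicate 2 was the library that overlapped FLO. The mean rose from 23.7 ± 3.61 to 43.4 ± 13.2 CPM (SD, n = 6 each), or by 0.87 on the log2 scale (SE 0.18, adjusted p = 0.00097, exact permutation p = 0.00433). Its antisense neighbours Gm28809 and Gm26728 held at most 4 and 1 counts.

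Cd9 was highest in fibrotic replicate 5, where the bile duct markers Epcam, at 11.4 CPM, and Krt19, at 10.1 CPM, were also at their highest. Sox9 was instead highest in replicate 4, at 16.1 CPM, against 8.61 CPM in replicate 5. In the fibrotic group Epcam, Krt19 and Sox9 were lowest in replicate 3, and Cd9 in replicate 2. The 8 cholangiocyte markers summed to 27.7 to 63.7 CPM in fibrotic and 20.6 to 27.0 CPM in FLO libraries, with the highest sum in replicate 5. Of the 6 that were tested, 3 were called higher and 0 lower, with a median log2 fold change of 1.26, led by Muc1 (1.98), Epcam (1.35) and Sox9 (1.16). Without fibrotic replicate 3, and with DESeq2, the count was 5. Cftr was under the filter. The part of bile duct cells in the rise of Cd9 was not tested.

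Trem2 encodes the lipid-sensing receptor of these macrophages and had the largest estimate of the 10 members on few counts, 15 to 107 per library. Fibrotic libraries held 0.764 CPM at the lowest, 3.61 at the median and 5.01 at the highest, and FLO libraries 0.875, 1.45 and 2.95 CPM. Replicate 2 of the fibrotic group was below every FLO library, whereas replicates 1, 4, 5 and 6 were above all of them. The means were 3.45 ± 1.63 and 1.72 ± 0.864 CPM (SD, n = 6 each). The log2 fold change of 1.01 (SE 0.40) did not pass the test (adjusted p = 0.0451), and the exact permutation p was 0.0974. That library decided the outcome, since without fibrotic replicate 2 the log2 fold change was 1.22 and the gene was called (adjusted p = 0.00421).

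Gpnmb encodes a transmembrane glycoprotein that appears in lysosome-rich macrophages, and it was the most variable member among FLO livers. It ran from 3.77 through 10.9 to 22.2 CPM in the fibrotic libraries and from 2.02 through 7.89 to 15.9 CPM in FLO. FLO replicate 6 was 7.88 times FLO replicate 1, and the highest fibrotic library was 5.88 times the lowest. Fibrotic replicate 4 alone lay above every FLO library. With means of 11.6 ± 5.97 and 8.36 ± 4.98 CPM (SD, n = 6 each), the log2 fold change was 0.48 (SE 0.45, adjusted p = 0.398, exact permutation p = 0.327).

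Itgax encodes CD11c, an integrin chain of dendritic cells and of lipid-associated macrophages. Its level was 1.07, 2.58 and 2.77 CPM in the lowest, median and highest fibrotic library and 1.70, 2.74 and 4.16 CPM in FLO. No fibrotic library exceeded the FLO maximum, and replicate 2 was again the lowest. Means were 2.30 ± 0.648 and 2.84 ± 1.03 CPM (SD, n = 6 each) and the log2 fold change was -0.30 (SE 0.27, adjusted p = 0.363, exact permutation p = 0.370). Counts ran from 21 to 82 per library.

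The livers ranked alike for most members. Fibrotic replicate 2 was the lowest of its group for 10 of 10 members, and replicate 4 was the highest for 8, with replicate 5 highest for Itgax and Cd9. Among FLO livers, replicate 1 was lowest for 6 members and replicate 6 was highest for 5. This order was not particular to the members. Of the 17 further lists, 8 had their lowest fibrotic sum in replicate 2, those of pan-macrophage, TREM2 signalling, CD9 partner, Kupffer, monocyte, dendritic, stellate and sinusoidal endothelial genes, and 8 had their highest in replicate 4. The summed CPM of the hepatocyte markers, most of it from Alb, ran the other way in the fibrotic group. It was highest in replicate 2, at 95666 CPM, and lowest in replicate 4, at 61125 CPM. Total counts of these 2 libraries were 20352675 and 17815568. The part of hepatocyte content in the order of the livers was not tested.

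**Figure D3:**
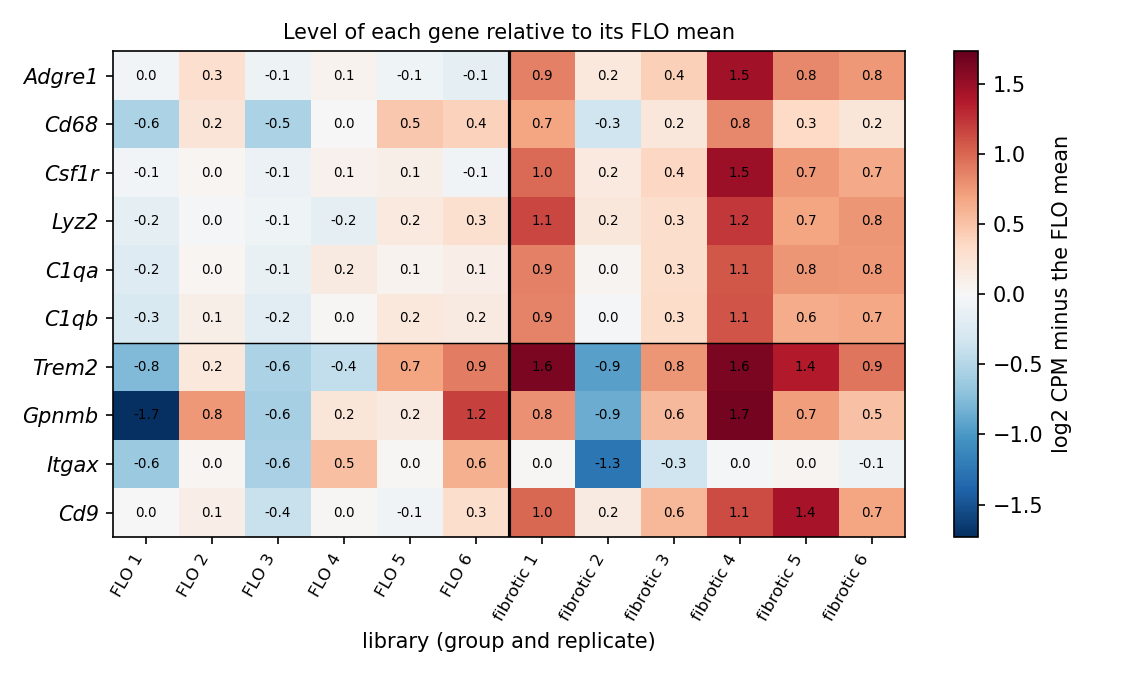
Colour and printed value give log2 CPM minus the gene's mean in FLO livers, for each member (rows) and library (columns). Fibrotic replicate 2 has the lowest value of its group in each of the 10 rows, and FLO replicates 1 and 3 are below the FLO mean for Cd68, Trem2, Gpnmb and Itgax.

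Once each group's mean was taken away, all 45 pairs of members had a positive Pearson r over the 12 libraries. The values ran from 0.50 for Adgre1 with Itgax to 0.97 for C1qa with C1qb. Between these lay Adgre1 with Csf1r at 0.94, Cd68 with Trem2 at 0.91, Cd68 with Gpnmb at 0.89 and Gpnmb with Itgax at 0.85. All points come from the same libraries with the same scaling, so these are descriptions without a test. Cd68, listed with the general genes, had its highest r with Trem2, followed by C1qb at 0.90, and its lowest with Adgre1 at 0.61.

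Likeness was also measured against the 11205 tested genes whose mean log2 CPM reached 1. C1qa and C1qb were most like C1qc, the third chain of C1q, at r = 0.98 each. Csf1r was most like Pogz (0.97), C1qc (0.95) and Axin2 (0.95), and Adgre1 like Nfam1 (0.96), Itgal (0.95) and Zeb2 (0.94). Lyz2 came nearest to Dok2 (0.95), the lysosomal protease gene Ctss (0.94) and Dynll1 (0.93). These neighbours were taken by r alone, and no shared function is implied.

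For Trem2 the nearest genes were Sprr1a (0.96), the monocyte chemokine gene Ccl2 (0.95) and Ly86 (0.94). Cd68 and Gpnmb had Ear2 in common, at 0.95 each. Their other neighbours were Cyp2d41-ps (0.95) and Irf5 (0.94) for Cd68, and Atf3 (0.93) and Trpm4 (0.93) for Gpnmb. Itgax was closest to Fam3c (0.96), Psmd8 (0.95) and Cgref1 (0.93), and Cd9 to Maged2 (0.96), Ano6 (0.94) and Iqgap1 (0.94).

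Levels can be set beside each other only per length, here as CPM per kilobase of merged exon in FLO livers. C1qa (39.3), Lyz2 (36.5) and C1qb (32.0) stood highest, followed by Cd9 (11.6), Csf1r (7.73), Cd68 (6.27) and Adgre1 (3.97). Gpnmb (1.28), Itgax (0.592) and Trem2 (0.347) were lowest. Merged exon counts every annotated exon of a gene, 4946 bases for Trem2 and 4803 for Itgax. The length of the transcripts present was not measured, and where they are shorter the level per length is understated. The order of the genes therefore depends on this choice of length. Among neighbours in this order, FLO ranges were separate for C1qb and Cd9, for Cd9 and Csf1r, and for Adgre1 and Gpnmb, while the other neighbours overlapped. By this measure Itgax exceeded Trem2 in 6 of 6 FLO libraries but in 1 of 6 fibrotic libraries.

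To see whether lipid-associated genes moved apart from general ones, each was expressed as a percentage of the summed CPM of Adgre1, Cd68, Csf1r, C1qa and C1qb in the same library, with no test. The 4 genes together came to 26.5 ± 4.89% in fibrotic and 25.8 ± 5.42% in FLO livers (SD, n = 6 each). Their ratio thus differed by 1.03-fold on the mean log2 scale, which is less than the spread between livers. Cd9 made up most of this sum in both groups, so the other genes weighed less in it. Cd9 stood at 19.2 ± 4.28% against 16.8 ± 2.22%, Gpnmb at 4.85 ± 1.39% against 5.77 ± 3.25% and Trem2 at 1.44 ± 0.495% against 1.19 ± 0.542%. Itgax stood at 1.01 ± 0.206% in fibrotic and 1.99 ± 0.619% in FLO livers, and here the groups did not overlap, with 0.732 to 1.20% against 1.37 to 2.84%. The same held for 27.5% of all 13411 tested genes outside the denominator when set over these 5 genes, so it is common and not particular to Itgax. With Lyz2 added to the denominator the Itgax ranges were 0.533 to 0.902% and 1.02 to 2.06%. In the fibrotic group Itgax CPM was not higher than in FLO while 4 of the 5 genes in the denominator were called higher.

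**Figure D4:**
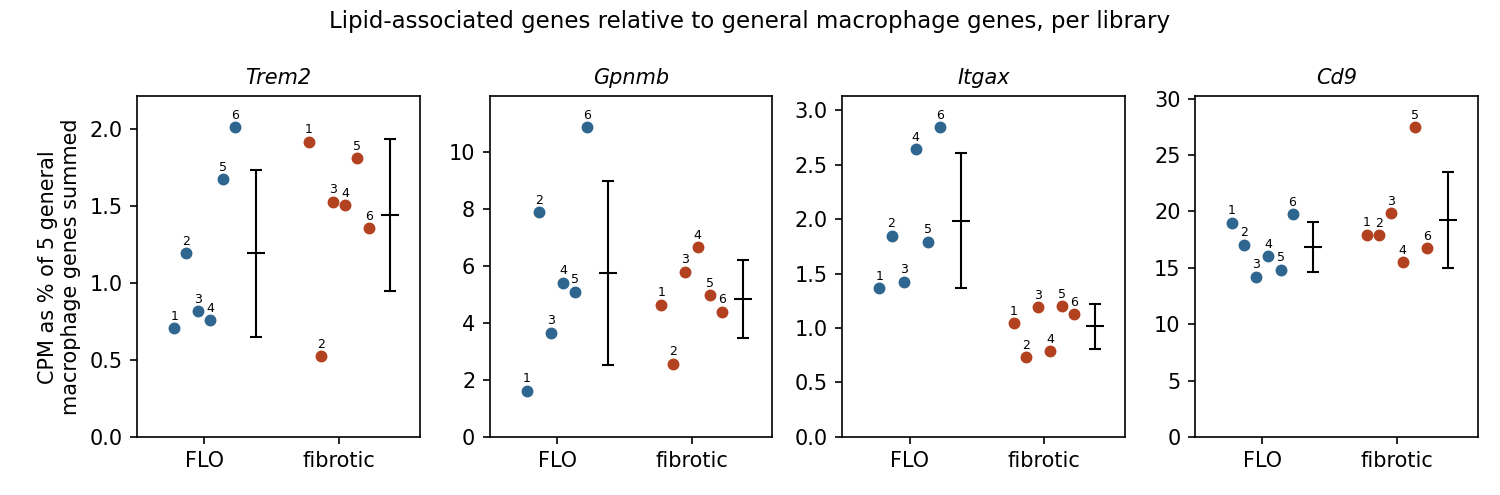
Panels plot each lipid-associated gene as a percentage of the summed CPM of 5 general macrophage genes in the same library, numbered by replicate, with mean and SD. For Itgax the highest fibrotic liver is at 1.20% and the lowest FLO liver at 1.37%, whereas the groups overlap for Trem2, Gpnmb and Cd9.

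The other genes of these pathways were taken from lists. Of 20 further pan-macrophage genes, 6 were called higher, or 30.0% against 15.9% of all genes, and 0 lower, with a median log2 fold change of 0.56. The largest rises were in Cx3cr1, the fractalkine receptor (1.36, SE 0.37, adjusted p = 0.0059), Mpeg1, which encodes the pore-forming perforin-2 (0.99), and Cybb, the catalytic subunit of the phagocyte oxidase (0.93). Mpeg1 ran from 98.4 to 166 CPM in fibrotic and from 50.8 to 67.9 CPM in FLO livers. Leaving out fibrotic replicate 2 gave a count of 10, and leaving out FLO replicate 1 a count of 3. At an unadjusted p under 0.05, 1 gene of this list, 2 of the lipid-associated programme, 2 of the CSF1R axis, 0 of TREM2 signalling and 0 of the Kupffer list were lower, and DESeq2 called 2 of the lipid-associated programme lower.

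In the programme of lipid-associated macrophages 4 of 22 genes, or 18.2%, were called higher and 0 lower, near the 15.9% of all genes called higher. The median log2 fold change was 0.21, and 17 of the 22 estimates were above 0. Atp6v0d2 (-0.79, SE 0.24, adjusted p = 0.0119) and Fabp5 (-0.77, SE 0.26, adjusted p = 0.0216) had the largest falls and were not called. Lpl, lipoprotein lipase, rose by 1.64 (SE 0.36, adjusted p = 0.0020), from 5.80 to 23.1 CPM in FLO to 27.3 to 89.9 CPM in fibrotic livers. Spp1, osteopontin, rose by 1.01 (SE 0.28, adjusted p = 0.0092), and Cstb, a cathepsin inhibitor, by 0.74. Spp1 was highest in fibrotic replicate 5, at 238 CPM, the library with the most Epcam and Krt19 but not the most Sox9. The part of bile duct cells in the rise of Spp1 was not tested. Several genes of the list, Apoe and Plin2 among them, are strongly expressed by hepatocytes. With the replicate number as a block the list had 2 calls.

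Around TREM2 itself, 12 signalling genes were listed, of which 10 were tested, 2 were called higher and 0 lower, with a median log2 fold change of 0.45. These were Syk, the kinase downstream of the receptor (0.77, SE 0.21, adjusted p = 0.0053), and Adam10, a protease that sheds TREM2 from the surface (0.53). Hcst and Trem1 were under the filter. Leaving out fibrotic replicate 2 gave 5 calls, and leaving out fibrotic replicate 1 or 4 or FLO replicate 1, 3, 4 or 6 gave 1, as did the replicate block.

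The list for the CSF1R axis held ligands, transcription factors, and Csf2 with its receptor genes. It numbered 15 genes, of which 14 were tested. Here 4 were called higher, or 28.6% against 15.9% of all genes, and 0 lower, with a median log2 fold change of 0.34. Csf1, the ligand, rose by 1.02 (SE 0.19, adjusted p = 0.00037), from 7.60 to 11.9 CPM in FLO to 11.1 to 27.6 CPM in fibrotic livers. The transcription factor genes Tfec (1.47) and Cebpb (0.98) also rose. Csf2, which does not encode a ligand of CSF1R, was listed with 0 counts in all 12 libraries.

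The C1q partners split by direction. Of 8 genes, 1 was called higher, or 12.5% against 15.9% of all genes, and 3 lower, against 14.0% of all genes. The median log2 fold change was -0.12. C1qc rose by 0.66 (SE 0.17, adjusted p = 0.0038), like C1qa and C1qb. Serping1, the C1 inhibitor made by hepatocytes, fell by 1.48 on the log2 scale, from 512 to 645 CPM in FLO to 184 to 219 CPM in fibrotic livers. C1s1, a protease of the C1 complex, fell by 0.83, and Calr, calreticulin, fell by 0.52. Without FLO replicate 1 the list had 2 calls.

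Among 9 tetraspanins and partners of CD9, 2 were called higher, or 22.2% against 15.9% of all genes, and 1 lower. The list median log2 fold change was 0.38. Tspan8, a tetraspanin of epithelia, rose by 2.03 (SE 0.40, adjusted p = 0.00070) and Tspan4 by 0.53, while Cd82 fell by 0.51.

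**Figure D5:**
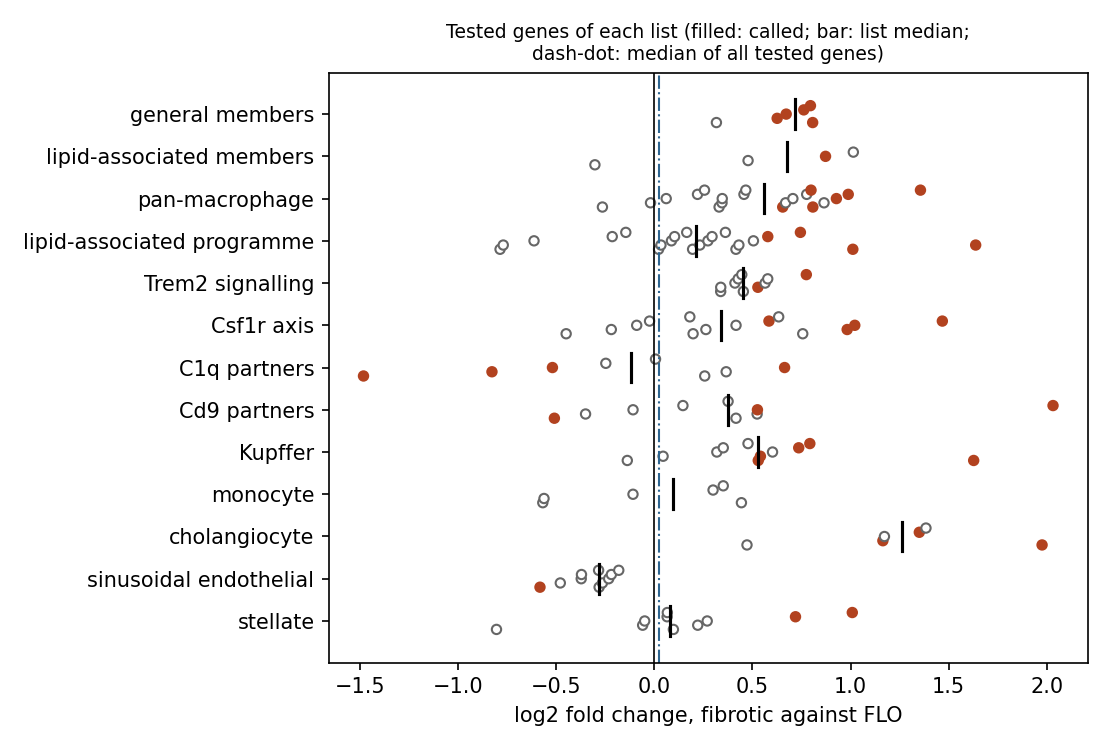
Each point is the log2 fold change of a tested gene, fibrotic against FLO, by list, filled where called, with a bar at the list median. The medians of the general members (0.72), the pan-macrophage genes (0.56) and the Kupffer genes (0.53) lie to the right of the median of all tested genes, and called C1q partners lie on both sides of it.

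Marker lists of the macrophage classes and of other liver cells were read beside the members. Of 11 Kupffer cell genes, 5 were called higher, or 45.5% against 15.9% of all genes, and 0 lower. The median log2 fold change was 0.53. The rises were led by the scavenger receptor gene Marco (1.63, SE 0.43, adjusted p = 0.0064), Cd5l (0.79) and Vsig4 (0.74). The count was 3 without FLO replicate 5 and 2 without FLO replicate 6. Marco was 29.4 CPM in fibrotic replicate 4 and 5.87 to 9.97 CPM in the other fibrotic livers, against 1.63 to 5.11 CPM in FLO.

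Of 10 monocyte genes 6 were tested, and edgeR called 0 (median log2 fold change 0.10), against 2 higher and 1 lower with DESeq2, 0 with limma-voom, and 0 higher and 1 lower at an unadjusted p under 0.05. Ly6c2, Chil3, Vcan and Treml2 were under the filter, and the list summed to 11.6 to 25.2 CPM in fibrotic and 10.6 to 24.5 CPM in FLO livers. Of those under the filter, Ly6c2, a marker of inflammatory monocytes, had 1 to 32 counts, at 0.731 ± 0.407 CPM in fibrotic and 0.183 ± 0.114 CPM in FLO livers (SD, n = 6 each). Vcan, which encodes versican, had 2 to 19 counts, at 0.589 ± 0.260 and 0.138 ± 0.0600 CPM. Both rose in the edgeR fit without the filter, Ly6c2 by 1.94 on the log2 scale (SE 0.48, adjusted p = 0.00269) and Vcan by 2.04 (SE 0.49, adjusted p = 0.00191), and these were the genes that DESeq2 called higher. Chil3 stood at 0.751 ± 0.745 and 0.602 ± 0.293 CPM and was not called in either fit, and Ace was the gene that DESeq2 called lower. A single monocyte gene was called when fibrotic replicate 2 or any one FLO library was left out. The 10 dendritic cell genes summed to 8.56 to 11.9 CPM against 7.05 to 11.5 CPM, with 3 tested (median 0.21) and 0 called by edgeR, DESeq2, limma-voom or at an unadjusted p under 0.05. Xcr1, Cd209a and Siglech had 0 counts in at least 1 library. The part of dendritic cells in the level of Itgax was not tested.

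Other blood cells contributed few counts. Neutrophil genes summed to 3.34 to 8.38 CPM in fibrotic and 2.19 to 6.04 CPM in FLO livers, and Csf3r, 1 of the 2 tested, was called higher at 0.71 (adjusted p = 0.0089). That call was lost with RLE or upper quartile scaling, without the low-count filter, with limma-voom, with the replicate block, and on leaving out any one library other than fibrotic replicate 2 or 3. Lymphocyte genes summed to 1.83 to 5.57 CPM against 1.64 to 5.74 CPM, with 2 of 10 tested and again 0 called in each of these ways. Platelet and megakaryocyte genes summed to 13.7 to 18.7 CPM in fibrotic and 8.37 to 9.97 CPM in FLO livers. Most of this came from Itgb3 and Itga2b. Of the 3 tested, 2 were called higher, or 66.7% against 15.9% of all genes. These were Itgb3 (0.94), which other cells also express, and Itga2b (0.76). The defining genes Gp9 and Gp1bb were under the filter.

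Liver cells that are not macrophages moved in their own ways. Stellate cell genes had 2 of 10 called higher, among them Lrat (0.72), with a median log2 fold change of 0.08, and 1 was called with RLE or upper quartile scaling, without the low-count filter, with limma-voom, with the replicate block, and on leaving out fibrotic replicate 1, 4 or 5 or any FLO library but replicate 4. Sinusoidal endothelial genes had 1 of 10 called lower, Kdr, which fell by 0.58, and a median of -0.28. There, 2 were called with upper quartile scaling and on leaving out fibrotic replicate 5 or FLO replicate 3. Hepatocyte genes had 2 of 10 called higher, Ahsg (1.04) and Fgb (0.82), and 3 called lower, with Apoa1 at -1.68, Serpina1a at -1.43 and Pck1 at -1.08. Gpnmb is also a gene of melanocytes and osteoclasts, and of 8 markers of these cells 4 were tested, with 1 called lower, Dct at -1.44, and Tyrp1 at 0 counts in all 12 libraries. The count was 2 without the low-count filter and on leaving out fibrotic replicate 2 or FLO replicate 3.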

How the data were processed

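Poly(A)-selected RNA of whole liver was sequenced from 6 fibrotic and 6 FLO ob/ob mice. The authors deposited 1 table of raw counts, not normalized, with 1 row per Ensembl gene. The submitters' processing notes name bcl2fastq, STAR 2.7.3a and mm10, and the methods name PISCES. Of 56205 identifiers, 4460, with 0.0587% of the counts, are absent from GENCODE M21, so the annotation release of the table is not given in the sources used here. The strand setting of the counting is not given either. Symbols and exon lengths came from GENCODE M21 on GRCm38.

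Counts were fitted in R 4.3.3 by the robust quasi-likelihood test of edgeR 4.0.16, with TMM scaling, filterByExpr and Benjamini-Hochberg adjustment over 13416 genes, with an adjusted p of 0.01 and a log2 fold change of 0.5 as thresholds. The fit was tested on simulated data. log2 CPM used a prior count of 2. An exact permutation test, two-sided and over all assignments of 6 against 6, was also run for each member. Pairs of libraries within a group exceeded sampling noise in a chi-square test (at least 10.3 per degree of freedom). Each library was 1 replicate. Total counts of 17815568 to 24814263 set the counting error, which is within the SDs given. No batch is named in the labels, so no comparison within batches was made.

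The members and the 17 further lists, of 190 genes with 149 tested, were chosen with earlier results of these data known. The text names all members, up to 3 called genes with the largest rise and 3 with the largest fall of each list, markers at 0 or under the filter, and the 3 genes most like each member, though some list genes are not reported here. Apoe, Plin2, Atp6v0d2, Fabp5, Ace and Alb were named after their values were seen. So were the values of Ly6c2, Vcan and Chil3, and the libraries of Epcam, Krt19, Sox9, Spp1 and Marco. The alternatives were RLE and upper quartile scaling, TMM factors that leave out the 50 most counted genes, no filter, at least 10 counts in every library, DESeq2 1.42.0, limma-voom 3.58.1, a non-robust fit, the replicate number as a block (for the lists, the block, no filter, DESeq2 and limma-voom were added after seeing the data), an adjusted p of 0.05 and leaving out each library.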

Additional observations from a re-analysis of the deposited data

Results flagged for a closer look

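Among 23 sets of 6 values examined (each member and the ratio of lipid-associated to general genes in both groups, and Xist in FLO), 3 had an end value whose gap to its neighbour was beyond Dixon's critical value for 6 samples as a share of the group's range. Chance alone flags about 1 in 20 such sets. The Xist pattern of FLO replicate 3 was already known, and the flags of Trem2 and Itgax come from the same library. The 3 flags are therefore not independent and cannot be weighed against that rate. For Trem2, fibrotic replicate 2 was the lowest of its group, at 0.764 CPM, with a gap of 0.661 of the range on the log2 scale. For Itgax, the same library was the lowest, at 1.07 CPM, with a gap of 0.705 of the range. FLO replicate 3 was the highest for Xist, with a gap of 1 of the range.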

How the results depend on the processing

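The 6 called members were the same under each alternative, and no member changed direction. Trem2 joined them in 2 settings: without fibrotic replicate 2, its leave-one-out range being 0.88 to 1.24, and at an adjusted p of 0.05 with no fold threshold (1.01, adjusted p = 0.0451). Its adjusted p ran from 0.00421 to 0.0985 over its alternatives in edgeR, DESeq2 and limma-voom. At an adjusted p of 0.05 with no fold threshold, 6994 of all genes were called, against 4012. The ratio of lipid-associated to general genes, with Cd9 as most of its numerator, had a log2 difference of 0.05, and -0.04 to 0.14 on leaving out each library.

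Same-numbered libraries had correlations of -0.162 to 0.104 after removal of group means and 0 of 6 matched best with its own number, so the samples share only a number. With the replicate block 3780 genes were called, of which 3694 were shared, and 6 members. The block gave 2 calls in the lipid-associated programme, 1 in TREM2 signalling, 0 among neutrophil genes and 1 among stellate genes. RLE scaling gave 0 neutrophil and 1 stellate gene, and upper quartile scaling 0 neutrophil, 1 stellate and 2 sinusoidal endothelial genes. Without the low-count filter 2 monocyte, 0 neutrophil, 1 stellate and 2 melanocyte and osteoclast genes were called. DESeq2 called 3 monocyte and 5 cholangiocyte genes, and limma-voom 0 neutrophil and 1 stellate gene. Leaving out each library gave 3 to 10 calls for pan-macrophage genes, 1 to 5 for TREM2 signalling, 2 to 4 for C1q partners, 2 to 5 for Kupffer genes, 0 to 1 for monocyte genes and 0 to 1 for neutrophil genes. It gave 2 to 5 for cholangiocyte, 1 to 2 for stellate, 1 to 2 for sinusoidal endothelial and 1 to 2 for melanocyte and osteoclast genes. Trem2 and Itgax had the fewest counts, down to 15 and 21 in a library, while Gpnmb, with 37 to 474, had the largest SE (0.45), and depth and the spread between livers were not separated.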
